A study of Homo sapiens with 12 samples.

Results

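The genes described here make and finish the transcripts of the replication-dependent histones. They are NPAT, CASP8AP2, SLBP, LSM10, LSM11, ZNF473, CPSF3, SYMPK, ERI1 and UPF1, chosen by name for their known roles. All 10 have a probe on the array, 15 of its 41000 gene probes, and all 15 probes passed the filter on dim values, as did 33477 probes in all. RNA came from HuH-7, an established liver cancer cell line whose p53 carries the mutation Y220C, after 24 h with the solvent DMSO, with 28 µM SLMP53-2 or with 42 µM SLMP53-2, a compound made to reactivate mutant p53. Each of the 3 groups holds 4 arrays, which the labels call biological replicates of 1 cell line, so all 12 arrays share the mutation and the DMSO arrays are the only untreated ones. The higher dose is 42 µM in the sample titles and 48 µM in the treatment field of the same samples, and it is called 42 µM here. The question asked of these genes was whether their own transcripts were lower in the treated cells, in which the histone transcripts were.

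Replication-dependent histone genes are transcribed in S phase, at nuclear bodies where NPAT and CASP8AP2, also called FLASH, gather. Their transcripts are not spliced and, unlike nearly all other mRNAs, end in a conserved stem-loop and not in a poly(A) tail. SLBP binds the stem-loop, the U7 snRNP with its own proteins LSM10 and LSM11 binds just downstream, and the CPSF3 endonuclease with the scaffold SYMPK cuts between them. When DNA synthesis stops, the transcripts are degraded, which involves UPF1 and the exonuclease ERI1. In cycling cells the amount of histone mRNA therefore follows the share of cells in S phase as well as the supply of these factors.

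The stem-loop is the element that most of these proteins act on, and it is shown here as it stands in the probes of 2 histone genes. Of the 80 probes of replication-dependent histone genes on the array, 2 hold its letters (capitals), each with up to 5 flanking bases.
H2AC19: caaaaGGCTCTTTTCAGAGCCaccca
H4C12: caaaaGGCCCTTTTTAGGGCCcc
The H4C12 stretch lies on the minus strand of hg19 at chr6:27798954-27798976, and the probe of H2AC19 lies at chr1:149823105-149823161. H2AC19 has a near-identical gene copy, so its probe cannot separate them. In each, the first and last 6 capitals pair to form the stem. At 42 µM the log2 fold change was -1.10 ± 0.24 (SE, n = 4 and 4) for H2AC19 and -1.30 ± 0.37 for H4C12, with limma adjusted p of 0.030 and 0.077. The labels name a low-input kit for the Cy3 labelling, and kits of this type prime on poly(A). A stem-loop transcript is thus not the usual template, and what share of the histone signal came from polyadenylated or from stem-loop transcripts was not tested.

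The arrays had 65.0% to 85.0% of their spots well above background and no saturated gene spot. They lie on 5 slides. Slide 1 holds DMSO replicate 1 and 28 µM replicate 3. Slide 2 holds DMSO replicate 4 and replicate 1 of both doses. Slide 3 holds 28 µM replicate 2 and 42 µM replicate 4. Slide 4 holds DMSO replicate 3, 28 µM replicate 4 and 42 µM replicate 2. Slide 5 holds DMSO replicate 2 and 42 µM replicate 3. All 9 hepatocyte markers tested, albumin among them, were detected on every array, and 0 of them passed the test at either dose. Of the 5 fibroblast, 4 immune and 3 endothelial markers tested, 0 passed at either dose. Detection did not set the lists apart. On all 4 DMSO arrays 5 of 5 fibroblast, 3 of 4 immune and 3 of 3 endothelial markers were detected too. The highest DMSO mean was 16.1 among the hepatocyte markers and 10.1 among the fibroblast markers, and the lowest hepatocyte one was 6.7. In bulk RNA fewer cells expressing a gene and less RNA per cell cannot be told apart, which holds for every level below.

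At 42 µM, 0 of the 10 factors passed the test, which asks for a limma adjusted p below 0.05 and a log2 change of 0.6 or more, against 2.99% of the 24213 genes with a value on every array. At 28 µM, 0 of the 10 passed, as did 0% of all genes, and between the doses the counts were again 0 of 10 and 0%. At an unadjusted p under 0.05 the count at 42 µM was 1 of 10, CASP8AP2, against 16.1% of all genes, at 28 µM it was 0 of 10 against 11.9%, and between the doses 0 of 10 against 2.59%. The arrays of 42 µM and of DMSO did not overlap for 1 of 10 factors, again CASP8AP2, against 13% of all genes, and those of 28 µM and DMSO for 0 of 10, against 5.72%. The median log2 fold change of the 10 factors was -0.05 at 42 µM and -0.0033 at 28 µM, beside -0.02 for all genes at each dose. Counted on the lower side alone, the 1 of 10 compares with 7.72% of all genes by unadjusted p and with 7.02% by overlap. With the slide as a block, 2 of 10 factors, CASP8AP2 and SLBP, were lower at 42 µM at an unadjusted p under 0.05 against 7.03% of all genes, and 1 of 10, SLBP, was lower at 42 µM than at 28 µM against 1.99%, while 0 of 10 passed the test. Between the doses and without the block, the largest differences beside that of UPF1 were those of SLBP (-0.34 ± 0.19, 42 µM minus 28 µM) and CASP8AP2 (-0.29 ± 0.14), each with an adjusted p of 0.9995.

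The same arrays gave a different picture for the histone transcripts. At 42 µM, 44 of 58 tested replication-dependent histone genes were called lower and 0 higher, against 1.42% of all genes called lower, with a median log2 fold change of -1.30, or 40.6% of the DMSO level. At 28 µM the median was -1.04, or 48.6% of DMSO. The 95% interval of every one of the 10 factors at 42 µM lay above the histone median, also that of UPF1, the widest. At 28 µM this held for 9 of 10, all but UPF1. The histone median was taken as a fixed value here, and its own spread over the arrays did not enter. How far a factor must fall to lower histone transcripts was not tested. Without a slide block, the whole interval lay within ±0.6 on the log2 scale for 7 of 10 factors at 42 µM. The exceptions were SLBP, CASP8AP2 and UPF1, whose intervals reach past that size. NPAT and LSM11, among the 7, were dim. Their DMSO means were 6.89 and 6.86, not far above the 6.28 to 6.56 of the endothelial markers, and at such levels a change can be understated.

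**Figure D1:**
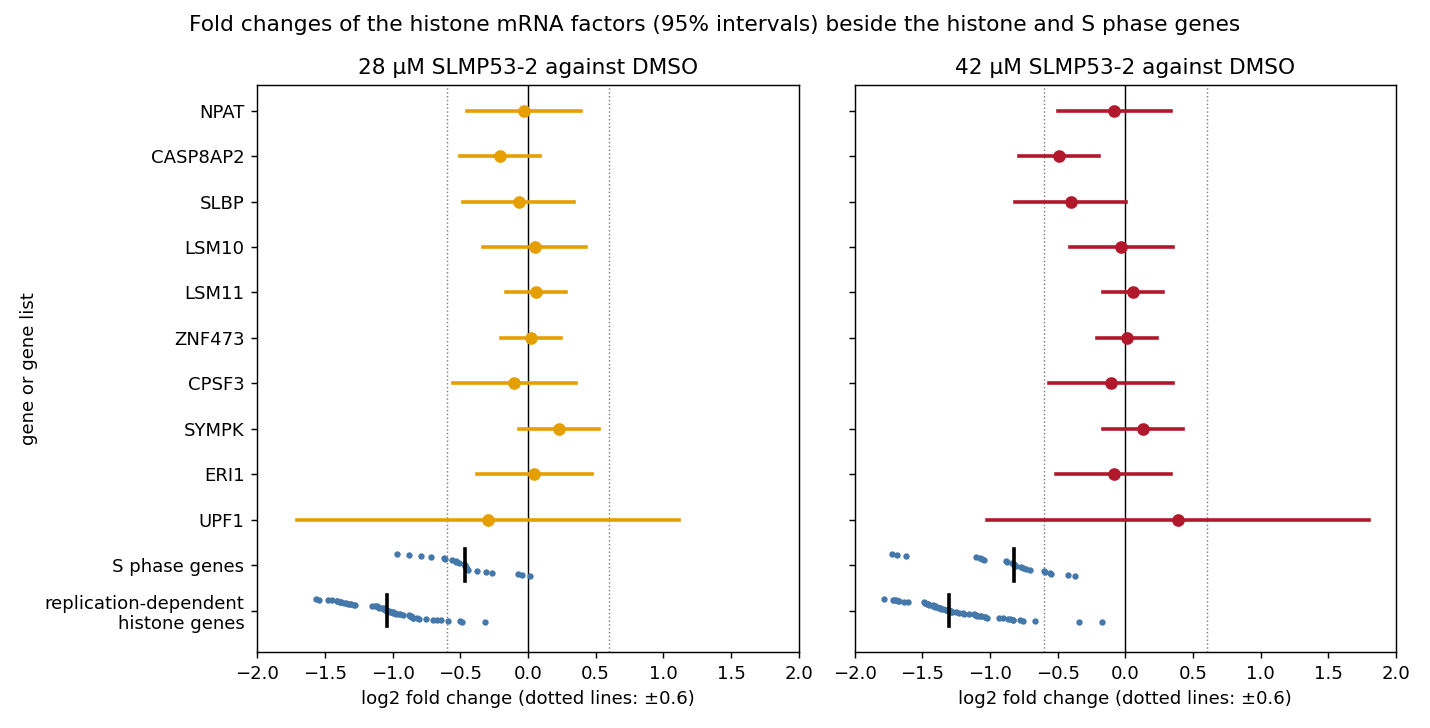
Log2 fold change of each factor against DMSO at 28 µM (left) and 42 µM (right), with its 95% interval from the limma fit (n = 4 and 4). The lower rows show each S phase gene and each replication-dependent histone gene as a point, with a black line at the list's median, -1.30 for the histone genes at 42 µM. The intervals include 0 for all 10 factors at 28 µM and for all except CASP8AP2 at 42 µM.

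SLBP is the stem-loop binding protein. Its probe lies at chr4:1694973-1695032 on the minus strand (hg19). Its normalized log2 level was 12.64, 12.88, 12.91 and 12.67 on the DMSO arrays 1 to 4. At 28 µM it was 12.46, 12.70, 12.41 and 13.26, and at 42 µM 12.17, 12.09, 12.55 and 12.67. The highest value of all 12 arrays was thus a treated one, 28 µM replicate 4, and the lowest 2 were 42 µM replicates 1 and 2. The groups overlapped at both doses. The difference at 42 µM was -0.40 ± 0.19 (SE) on the log2 scale, or 75.6% of DMSO with a 95% interval of 56.9% to 100.3%, and limma's adjusted p was 0.33. At 28 µM it was -0.07 ± 0.19 (adjusted p = 0.92), and without 28 µM replicate 4 it was -0.25 ± 0.16 (adjusted p = 0.48). Within slides, 42 µM minus DMSO was -0.49 on slide 2, -0.83 on slide 4 and -0.33 on slide 5, and with the slide as a block the log2 fold change was -0.51 ± 0.18 (adjusted p = 0.22), with a 95% interval of -0.92 to -0.095 that, unlike the one without the block, leaves out 0. The blocked difference between 42 µM and 28 µM was -0.44 ± 0.18 (adjusted p = 0.91). The processed signal scaled to the 75th percentile gave -0.63 (adjusted p = 0.11). SLBP was therefore below DMSO at 42 µM in each comparison made within a slide, by an amount that did not pass the test.

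CASP8AP2, the FLASH protein that joins histone locus bodies to the U7 snRNP, was the factor with the lowest level relative to DMSO at 42 µM. Its probe lies at chr6:90583647-90583706 on the plus strand (hg19). The log2 level was 9.40, 9.56, 9.34 and 9.15 on DMSO. It was 9.32, 9.09, 8.92 and 9.30 at 28 µM and 9.15, 8.70, 8.81 and 8.82 at 42 µM. All 4 arrays of 42 µM lay below all 4 of DMSO, though 42 µM replicate 1 and DMSO replicate 4, which share slide 2, differed by less than 0.01. The other within-slide differences at 42 µM were -0.63 on slide 4 and -0.74 on slide 5. The log2 fold change was -0.49 ± 0.14 (SE), or 71.2% of DMSO with an interval of 58.0% to 87.4%, and limma's adjusted p was 0.077. At 28 µM it was -0.20 ± 0.14 (adjusted p = 0.61). Over 21 alternative settings the value at 42 µM stayed between -0.58 and -0.42 and the adjusted p between 0.051 and 0.24, so that it missed the threshold in every one.

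The promoter of CASP8AP2 is shown because it holds letters to which E2F factors, the activators of S phase genes, are known to bind. It spans 250 bases before to 50 after the start in RefSeq (GRCh38.p14, chr6:89829630-89829929, plus strand), with the match in capitals.
CASP8AP2: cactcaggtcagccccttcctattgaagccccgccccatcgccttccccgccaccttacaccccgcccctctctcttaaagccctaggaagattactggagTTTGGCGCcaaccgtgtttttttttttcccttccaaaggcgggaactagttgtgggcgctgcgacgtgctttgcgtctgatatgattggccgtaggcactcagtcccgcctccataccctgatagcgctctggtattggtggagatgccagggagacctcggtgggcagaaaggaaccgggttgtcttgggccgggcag
The letters searched were TTTGGCGC, TTTCCCGC, TTTGCCGC and TTTCGCGC, on both strands, and the match starts at -149. One of these occurs in the promoters of 3.99% of 27305 genes. Among the factors it was found in 2 of the 8 that have an entry, CASP8AP2 and CPSF3, and not in the windows of NPAT, SLBP, LSM10, LSM11, SYMPK and UPF1. It was found for 13 of 20 S phase genes and for 15 of 58 replication-dependent histone genes. CCAAT, the element of many histone promoters, searched on both strands, was in 49 of those 58 histone windows, in 4 of the 8 factor windows (CASP8AP2, LSM10, NPAT and UPF1) and in 39.7% of all. These are matches of letters and not measured binding.

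NPAT, the coactivator of histone transcription that cyclin E and CDK2 act on, has 2 probes, the brighter at chr11:108032355-108032414 on the minus strand (hg19). The brighter read 6.49, 7.10, 6.88 and 7.09 on DMSO. It read 6.49, 7.38, 6.65 and 6.94 at 28 µM and 6.63, 6.67, 7.003 and 6.95 at 42 µM. The groups overlapped throughout, and the highest and the lowest array were both of 28 µM. The log2 fold change was -0.03 ± 0.19 at 28 µM and -0.08 ± 0.19 at 42 µM, with adjusted p of 0.97 and 0.91. The interval at 42 µM ran from -0.50 to 0.34. The dimmer probe gave 0.07 and -0.02. With the slide as a block the value at 42 µM was -0.26 ± 0.15 (adjusted p = 0.48).

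**Figure D2:**
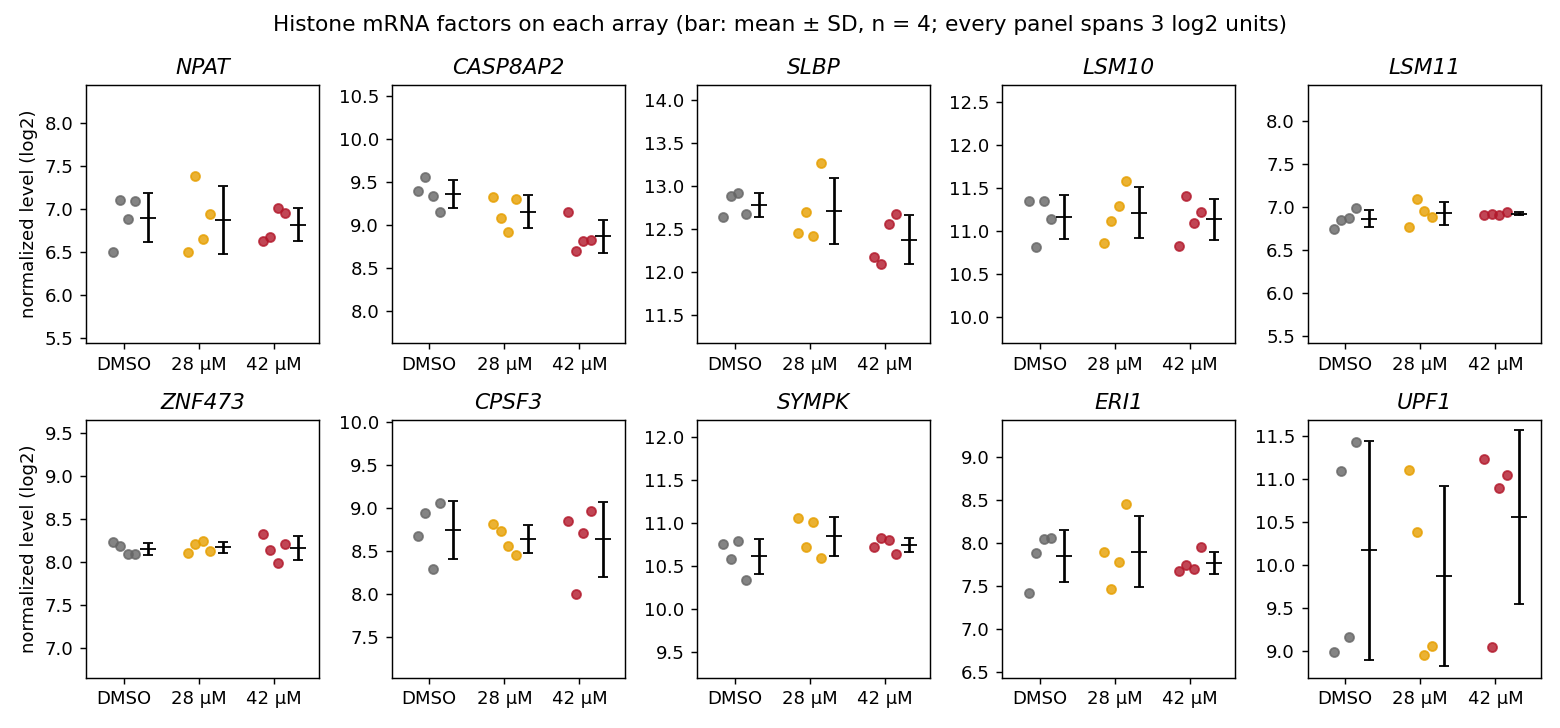
Normalized log2 level of each factor on each of the 12 arrays (brightest probe), with mean and SD of each group of 4 beside the points. Every panel spans 3 log2 units. The groups overlap for every factor except CASP8AP2 at 42 µM, and UPF1 falls into a low and a high set of arrays within each group.

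The U7 snRNP proteins LSM10 and LSM11, which replace a pair of the common Sm proteins in its ring, had levels close to DMSO. LSM10 (chr1:36859508-36859567) read 11.34, 10.81, 11.35 and 11.14 on DMSO, 10.86, 11.11, 11.29 and 11.58 at 28 µM, and 10.83, 11.40, 11.08 and 11.21 at 42 µM. Its log2 fold change was 0.05 ± 0.18 at 28 µM and -0.03 ± 0.18 at 42 µM. With the slide as a block these were -0.004 ± 0.13 and 0.01 ± 0.13. LSM11 has 3 probes, the brightest at chr5:157187185-157187244, which read 6.75, 6.85, 6.87 and 6.99 on DMSO, 6.77, 7.09, 6.96 and 6.88 at 28 µM, and 6.91, 6.92, 6.90 and 6.94 at 42 µM. It gave 0.06 ± 0.10 at both doses. The other 2 probes of LSM11 gave 0.10 and 0.08 at 28 µM and 0.11 and 0.04 at 42 µM, and 1 of them was well above background on only 2 of 4 DMSO arrays. For all 3 probes the groups overlapped.

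ZNF473, also called ZFP100, is a zinc finger protein that binds LSM11 and helps to place the U7 snRNP. It had the narrowest interval of the 10 at 42 µM together with LSM11. Its brighter probe (chr19:50550061-50550120) read 8.24, 8.18, 8.10 and 8.09 on DMSO. It read 8.11, 8.21, 8.24 and 8.13 at 28 µM and 8.32, 8.14, 7.99 and 8.21 at 42 µM. Its log2 fold change was 0.02 ± 0.10 at 28 µM and 0.01 ± 0.10 at 42 µM, where the interval ran from -0.21 to 0.23, or 86.5% to 117.6% of DMSO. The dimmer probe gave -0.08 and -0.05.

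Of the cleavage factors, CPSF3 is the endonuclease that cuts both histone and polyadenylated transcripts. Its probe crosses an intron (chr2:9599689-9607836, hg19). It read 8.67, 8.94, 8.30 and 9.05 on DMSO. It read 8.81, 8.74, 8.56 and 8.45 at 28 µM and 8.85, 8.00, 8.72 and 8.97 at 42 µM. The 3 lowest arrays, 1 of each group, were the 3 arrays of slide 4. Against DMSO the log2 difference was -0.10 ± 0.21 at 28 µM and -0.11 ± 0.21 at 42 µM, with adjusted p of 0.89 for both. With the slide as a block it was -0.12 ± 0.13 at 28 µM and -0.19 ± 0.13 at 42 µM. There limma's adjusted p was 0.74 and 0.59, and the interval at 42 µM ran from -0.49 to 0.11.

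SYMPK, the scaffold of the cleavage complex, read 10.75, 10.59, 10.79 and 10.34 on DMSO (chr19:46318759-46318818). It read 11.06, 10.72, 11.01 and 10.59 at 28 µM and 10.72, 10.83, 10.80 and 10.64 at 42 µM. The highest 2 arrays were of 28 µM and the lowest was a DMSO array, but the groups overlapped. On the log2 scale the difference from DMSO was 0.23 ± 0.14 at 28 µM and 0.13 ± 0.14 at 42 µM, with adjusted p of 0.56 and 0.75. Without 28 µM replicate 4 the value at 28 µM was 0.31 ± 0.14 (adjusted p = 0.30), and SYMPK was then the 1 of 10 factors with an unadjusted p under 0.05, against 16.8% of all genes.

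ERI1, the exonuclease that trims and degrades stem-loop ends, has 2 probes. The brighter lies at chr8:8887418-8887477 and the dimmer at chr8:8887679-8887735 (hg19). The brighter read 7.41, 7.88, 8.05 and 8.05 on DMSO. It read 7.89, 7.46, 7.78 and 8.45 at 28 µM and 7.67, 7.74, 7.69 and 7.95 at 42 µM. The highest array was 28 µM replicate 4, as for SLBP. The log2 fold change was 0.05 ± 0.20 at 28 µM and -0.09 ± 0.20 at 42 µM. The dimmer probe gave 0.01 ± 0.15 and -0.26 ± 0.15, and neither probe passed the test (adjusted p at 42 µM of 0.91 and 0.49).

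UPF1, the helicase of nonsense-mediated decay that also takes part in histone mRNA decay, had by far the widest spread of the 10. It read 8.99, 11.09, 9.17 and 11.43 on DMSO (chr19:18978975-18979034). It read 11.10, 10.39, 8.95 and 9.06 at 28 µM and 11.23, 9.05, 10.90 and 11.05 at 42 µM. The levels formed a low set of 5 arrays between 8.95 and 9.17, which are the 5 arrays of slides 1 and 4, and a high set of 7 arrays between 10.39 and 11.43, which are those of slides 2, 3 and 5. Its log2 fold change was -0.29 ± 0.65 at 28 µM and 0.39 ± 0.65 at 42 µM, with a 95% interval at 42 µM of -1.02 to 1.80. With the slide as a block it was -0.26 ± 0.14 at 28 µM and -0.06 ± 0.14 at 42 µM, where the interval ran from -0.38 to 0.26 and the adjusted p was 0.93. Within slides each of the 6 treated arrays that share a slide with a DMSO array lay below it, by 0.04 to 0.33. The sign of the UPF1 value at 42 µM is thus not determined by these arrays.

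The slide also separated 2 other factors. The 5 arrays of slides 1 and 4 lay above the other 7 for LSM10 (11.29 to 11.58 against 10.81 to 11.21) and below them for CPSF3 (8.00 to 8.67 against 8.72 to 9.05). Over all genes tested, those 5 arrays lay entirely below the other 7 for 2.68% and entirely above for 1.40%. The UPF1 pattern, entirely below with means at least 1 log2 unit apart, was shared by 180 of 24213 genes, or 0.743%, and 0 genes showed it in the other direction. The slides are the only batch that the files give, and what differed between them was not tested.

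**Figure D3:**
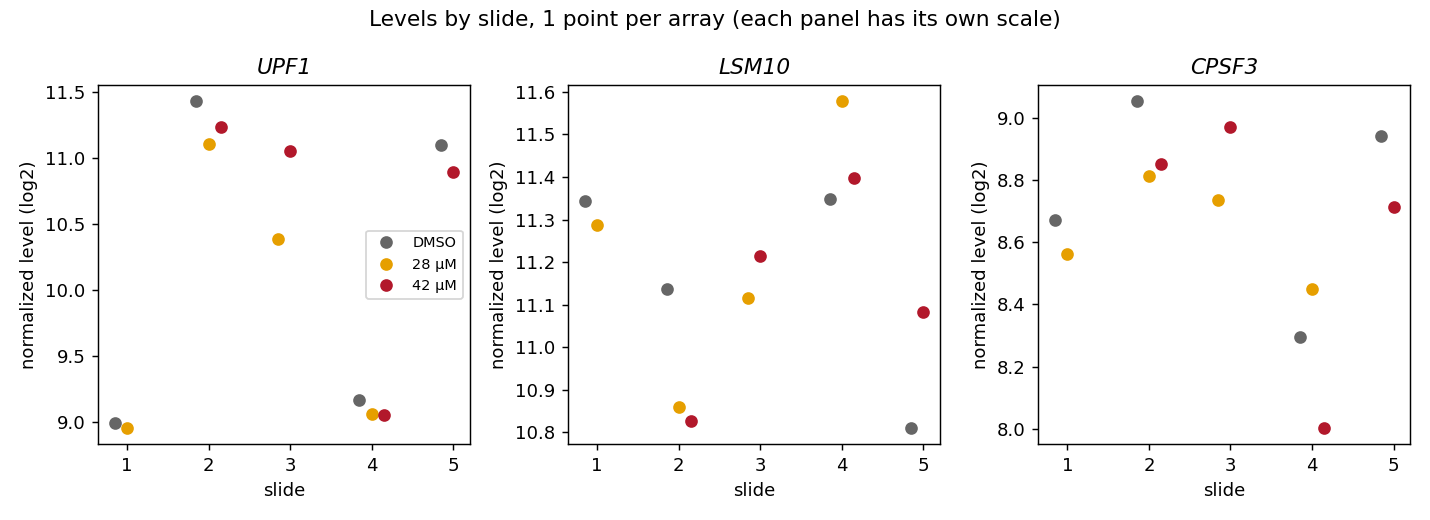
Normalized log2 level of UPF1, LSM10 and CPSF3 on each array, placed by slide and coloured by group (1 point per array, each panel with its own scale). UPF1 sits near 9 on slides 1 and 4 whatever the treatment and between 10.39 and 11.43 on the others.

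Set beside the factors, the median of the histone transcripts was low on every treated array, though not every gene was. The median difference of the 58 histone genes from their DMSO means was -0.91, -1.41, -0.96 and -0.86 at 28 µM and -1.32, -1.59, -1.19 and -1.01 at 42 µM, while the DMSO arrays lay between -0.16 and 0.26. All 58 genes had a mean below DMSO at both doses. At 42 µM the arrays of 50 of 58 did not overlap with DMSO, against 7.02% of all genes lower in that way. At 28 µM 0 of 58 were called, and 57 of 58 had an unadjusted p under 0.05 in limma on the lower side against 6.29% of all genes. With 1 array left out the number called ran from 0 to 33. The 33 were without 28 µM replicate 4, against 0.987% of all genes. That array had the highest S phase median of the treated ones, so leaving it out selects on the outcome. The values given without it for SLBP, SYMPK and the partner genes share this limit. By class, the called genes at 42 µM were 5 of 5 linker H1, 10 of 13 H2A, 14 of 15 H2B, 9 of 12 H3 and 6 of 13 H4 genes. Among those called, the 4 with the largest decrease were H1-1 (-1.78 ± 0.21), H2BC4 (-1.71 ± 0.42), H2AC16 (-1.71 ± 0.31) and H4C15 (-1.69 ± 0.29), with adjusted p of 0.011, 0.045, 0.016 and 0.015. Many of these genes are near-identical in sequence, so the 58 are not independent. The number called at 42 µM was 0 without DMSO replicate 2 or without 42 µM replicate 2, and 1 when the slide entered as a block, where 57 of 58 still had an unadjusted p under 0.05 and the median was -1.28.

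S phase genes, which cover the replication machinery and nucleotide supply, give the cell cycle side of the same arrays. At 42 µM, 10 of 23 were called lower and 0 higher, against 1.42% of all genes called lower, with a median log2 fold change of -0.82. Among those called, the largest decreases were in RRM2 (-1.69 ± 0.34), TK1 (-1.62 ± 0.30), TYMS (-1.10 ± 0.22) and PCNA (-1.08 ± 0.22), all with an adjusted p of 0.024 or less. The count was 0 under a slide block or without DMSO replicate 1, DMSO replicate 2 or 42 µM replicate 2. Under that block the S phase median was -0.83, and 22 of 23 were lower at an unadjusted p under 0.05. The count was 1 without DMSO replicate 4, 3 without 42 µM replicate 1, 4 without DMSO replicate 3, and 6 without 28 µM replicate 3. At 28 µM the median was -0.47 and 0 were called, with 13 of 23 lower at an unadjusted p under 0.05 in limma. Array by array, the median of the 22 S phase genes with a value everywhere was -0.63, -0.80, -0.53 and 0.02 at 28 µM and -1.24, -1.16, -0.52 and -0.42 at 42 µM.

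On 28 µM replicate 4 the medians of the histone and S phase genes parted, which rests on 1 array. The histone genes were themselves split there. H2AC19 read 13.83 and H2BC7 13.52, beside DMSO means of 13.86 and 13.52, while H4C12 read 8.51 beside a DMSO mean of 10.64. On that array the S phase median was at the DMSO level (0.02) and SLBP 0.48 above its DMSO mean. The histone median was -0.86, close to the -0.91 and -0.96 of replicates 1 and 3. CASP8AP2 on that array was -0.06 and NPAT 0.05 from DMSO. At 42 µM, replicates 1 and 2 had the lowest S phase medians and also the lowest SLBP (-0.60 and -0.69), whereas replicates 3 and 4 had SLBP at -0.22 and -0.10. The histone median was at least 0.59 below SLBP on each of the 8 treated arrays. The question of whether lower factor transcripts account for the lower histone transcripts was not tested, since the arrays measure both at 1 time and measure no protein.

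**Figure D4:**
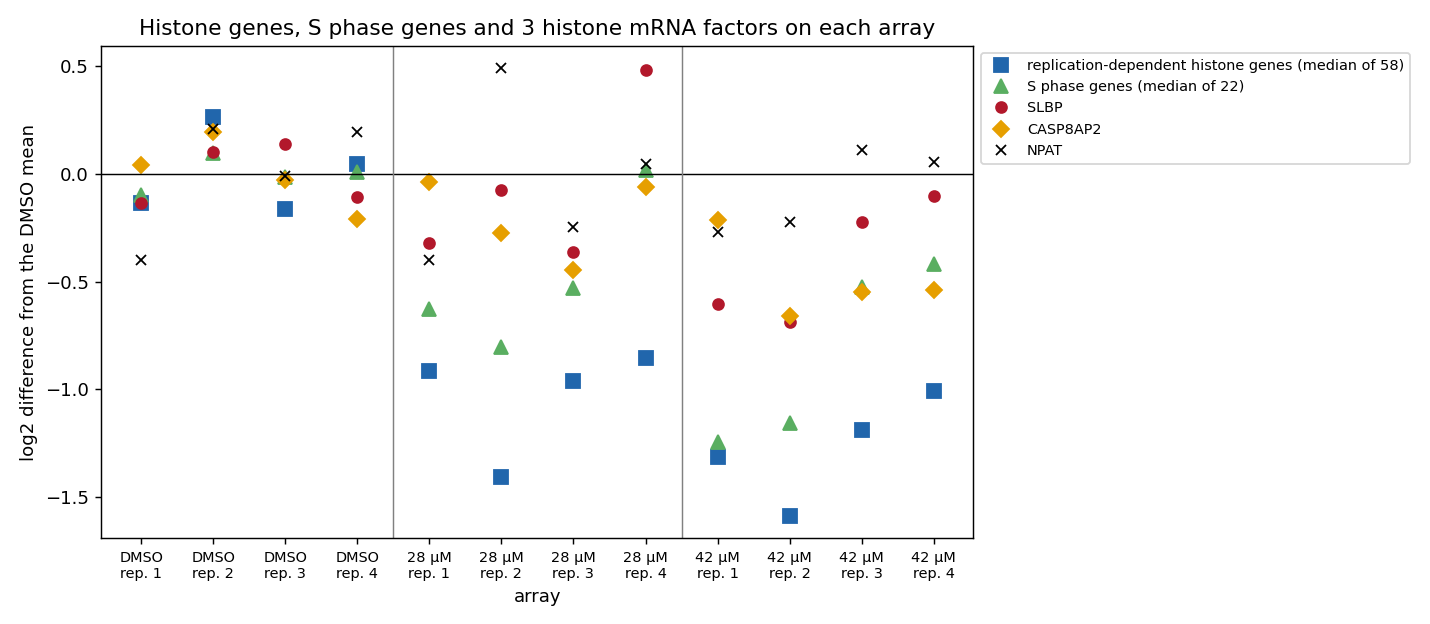
Log2 difference from the DMSO mean on each of the 12 arrays, for the median of the 58 replication-dependent histone genes, the median of 22 S phase genes, SLBP, CASP8AP2 and NPAT. Histone medians lie between -1.59 and -0.86 on all treated arrays, and on 28 µM replicate 4 the S phase median is 0.02 and SLBP is 0.48.

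The wider machinery was followed in 67 partner genes, all tested, in 6 roles. At 42 µM, 4 of 67 were called lower and 0 higher, against 1.42% and 1.57% of all genes, and the median log2 fold change was -0.11. At 28 µM 0 were called, with 8 lower and 1 higher at an unadjusted p under 0.05 in limma against 6.29% and 5.58% of all genes. Without 28 µM replicate 4 the count was 2. Of the 11 transcription partners 1 was called, CCNE1, the cyclin that activates CDK2 at the start of S phase, at -0.86 ± 0.20 (adjusted p = 0.040). It read 12.01, 11.98, 12.15 and 11.93 on DMSO and 10.86, 10.98, 11.44 and 11.35 at 42 µM, and on 28 µM replicate 4 it was 12.02. Of the 9 cap-binding and elongation genes 1 was called, SRRT, also known as ARS2, which joins the cap-binding complex to 3′ processing of histone transcripts. It stood at -0.77 ± 0.15 (adjusted p = 0.019). Of the 21 decay genes 2 were called, LSM3 (-0.69 ± 0.15, adjusted p = 0.028) and LSM6 (-0.68 ± 0.14, adjusted p = 0.025), both subunits of the LSM1-7 ring that binds the oligouridylated end of histone mRNA and of the LSM2-8 ring of U6 snRNA. The decapping enzyme DCP2 had an adjusted p of 0.028 but a log2 fold change of -0.57, under the limit.

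Of the 7 further U7 snRNP genes, which are the Sm proteins and the SMN complex that assembles them, 0 were called and 6 lay below 0, with a median of -0.32. Of the 15 cleavage and polyadenylation genes 0 were called, and the median was -0.10. The 4 translation genes had 0 called and a median of 0.06. At an unadjusted p under 0.05, 15 of the 67 were lower and 1 higher, against 7.72% and 8.35% of all genes. The count of 4 was 0 without DMSO replicate 1, 2 or 4, without 42 µM replicate 2 or under a slide block, and 2 without DMSO replicate 3 or 42 µM replicate 1. The partner median under that block was -0.15, and 19 of 67 were lower at an unadjusted p under 0.05.

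The replication-independent histone genes encode histone variants, and their transcripts are in the main polyadenylated. Of 10 tested, 3 were called lower at 42 µM and 0 higher, against 1.42% and 1.57% of all genes, with a median of -0.22. H2AX, the variant phosphorylated at DNA breaks, stood at -1.08 ± 0.21 (adjusted p = 0.019), H2AJ at -0.98 ± 0.16 (adjusted p = 0.013) and the centromeric CENPA at -0.84 ± 0.16 (adjusted p = 0.019). H2AX transcripts are known in both a stem-loop and a polyadenylated form. The count of 3 was 0 without DMSO replicate 2 or 42 µM replicate 2, and likewise under a slide block.

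Over the 12 arrays, the genes whose levels were most like those of SLBP were MCM7, DNA2, EXOSC9, BUB1B and COCH, with Pearson r from 0.91 to 0.94. MCM7 is a subunit of the replicative helicase and DNA2 a nuclease of replication. Those most like CASP8AP2 were DCP2, HHEX, RAD51AP1, KLF5 and UBR3, with r from 0.94 to 0.97, and DCP2 is 1 of the partner genes above. For NPAT they were SEMA3A, an unnamed probe, an Ensembl transcript, BRCA2 and LINC00282, with r from 0.87 to 0.90. These r are a description of 12 arrays that share treatments and slides, chosen as the highest among 24213 genes.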

How the data were processed

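HuH-7 RNA was hybridised to 12 Agilent 1-colour arrays. The authors deposited Feature Extraction output (version 10.7.3.1 per the labels) with mean and background intensities per spot before normalization, and a table of their own log2 values after Edwards background correction and quantile normalization. From the deposited intensities the same steps were repeated with limma 3.58.1 in R 4.3.3, without control spots and outlier-flagged spots, and spots of one probe were averaged on the log2 scale. Probes well above background on fewer than 2 arrays in every group were dropped. Probe positions are hg19 as in the scanner files, and 28236 of 41000 probes were named through RefSeq accessions (GRCh38.p14, names and promoters only). Where in a transcript each probe lies was not looked up. The brightest probe stands for a gene. The number of arrays limits the precision.

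One limma model (lmFit, eBayes) covered all 12 arrays in 3 groups, two-sided, with Benjamini-Hochberg adjustment over all 33477 probes, and 95% intervals come from the same fit. The fit was tested on simulated data. The members, lists, named genes, tests and alternatives were chosen with earlier results of these data known. Named are all 10 factors and, per list, up to 4 called genes of largest change at 42 µM in each direction, and for SLBP, NPAT and CASP8AP2 the 5 genes of highest correlation. H2AC19 and H4C12 are named outside this rule, for the stem-loop in their probes. Alternatives were the processed signal at the 75th percentile, normexp (offset 50), no and strict filters, the authors' values, slide and replicate blocks, only the groups compared, a log2 limit of 1, any probe of a gene, and each array left out. Promoters and plots were handled in Python 3.11.15 with pandas 2.3.3 and matplotlib 3.10.9. Protein, qPCR and cell cycle data were not analysed here. The level of 1 gene of the lists is not reported here.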

Additional observations from a re-analysis of the deposited data

Results flagged for a closer look

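In 87 sets of 4 arrays, 3 for each of the 10 factors and the 19 other genes checked, 3 held an array far from the other 3. Chance gives about 1 in 20, so the count is no more than chance gives. For UPF1 at 42 µM, replicate 2 read 9.05 and the others 10.90 to 11.23, a gap of 0.845 of the whole range (limit 0.829), and it is the only 42 µM array on slide 4 or slide 1. For H2AC16 on DMSO, replicate 3 read 9.05 and the others 9.55 to 9.56, a gap of 0.974 of the range. For H2AC16 at 28 µM, replicate 2 read 7.04 and the others 8.05 to 8.22, a gap of 0.849. The causes were not tested.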

How the results depend on the processing

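None of the 10 factors was called in any of the 3 comparisons under any alternative, so there was no called value to turn. Values that were not called did change sign, among them CPSF3 (-0.25 to 0.11) and LSM10 (-0.15 to 0.07) at 42 µM. The lists depend on the processing. At 42 µM the number of histone genes called was 44, and it was 1 with the slide as a block, 0 to 46 with 1 array left out, and 39 to 52 under the other settings. At 28 µM it was 0, with 1 called under the replicate block and 0 to 33 with 1 array left out, the 33 being without 28 µM replicate 4. Partner genes called at 42 µM were 4, then 0 with the slide as a block, 0 at a log2 limit of 1 and 0 to 5 with 1 array left out. At 28 µM they were 0, and 0 to 2 with 1 array left out. Same-numbered arrays had correlations of -0.44 to 0.61 between their deviations. Arrays of unlike number were not compared and some same-numbered arrays share a slide, so whether the number pairs them is not known. Under the replicate block the counts at 42 µM were 45 histone and 5 partner genes and 0 factors. Across alternatives SLBP at 42 µM ranged from -0.63 to -0.31 and UPF1 from -0.06 to 0.89. With the slide as a block 1 gene in all passed at 42 µM. Settings for the S phase and variant lists and for the other named genes were chosen after seeing the data. Under 21 alternatives the call was kept 12 times for CCNE1, 13 for SRRT, 15 for LSM3 and 16 for LSM6, and 10 times for H2BC4 and 19 for H1-1. With 4 arrays per group and no slide block, the intervals of UPF1, SLBP and CASP8AP2 at 42 µM reach past 0.6 and those of the other factors do not. Under the slide block that of UPF1 (-0.38 to 0.26) does not, and that of NPAT (-0.601 to 0.077) just does.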
